A study of Mus musculus with 24 samples.

Results

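Receptors for acetylcholine, noradrenaline and adrenaline, dopamine, histamine and serotonin were followed in total RNA from 4 brain regions of Cdr1as knockout (KO) and wild-type (WT) mice. The genes were taken by name: every protein-coding gene whose mouse symbol begins with Chrm (muscarinic acetylcholine receptors), Chrn (nicotinic acetylcholine receptor subunits), Adra or Adrb (adrenergic receptors), Drd (dopamine receptors), Hrh (histamine receptors) or Htr followed by a digit from 1 to 7 (serotonin receptors), without the kinases named Adrbk. The count tables, with 37621 gene entries each, held 53 such genes. The 44 that had 10 or more counts in 3 or more of the 24 libraries are described here, among 17915 entries that met the same minimum. They comprised all 9 adrenergic and all 5 muscarinic genes, 11 of 16 nicotinic, 12 of 14 serotonin, 4 of 5 dopamine and 3 of 4 histamine genes. Closest to the minimum were Chrna1, Chrna10 and Drd3, which reached 10 counts in 6, 7 and 8 libraries. Those libraries were all hippocampal for Chrna1, and mainly from olfactory bulb for Chrna10 and from cortex for Drd3. As these genes met the minimum through the region where they were high, their regional tests and counts below are no independent evidence. Of the 9 genes left out, Chrna6 and Drd4 reached 10 counts in 2 libraries each, and Chrna9, Chrnd, Chrne, Chrng, Hrh4, Htr2b and Htr3b in 0.

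Neurons hold large amounts of the circular RNA Cdr1as, to which the microRNA miR-7 binds, and the libraries compare brain regions with and without it. KO libraries were made from dissected cerebellum, cortex, hippocampus and olfactory bulb of C57BL/6 mice with the genotype Cdr1as knockout, 3 per region, and WT libraries from the same regions of wild-type C57BL/6 mice, 3 per region. Ages, and whether the 3 libraries of a group came from separate mice, are not given in the labels used here, so the p-values below measure the spread between these libraries, which may be technical. All values come from RNA of whole dissected pieces, in which fewer cells of a type and less RNA per cell cannot be told apart.

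The Cdr1as entry held 0 to 13 counts in KO libraries, against 5617 to 130878 in WT libraries. Gene counts summed to between 5.18 and 30.46 M per library (M, mega). In every library the summed level of 6 marker genes of the labelled region exceeded that in any library of another region (at least 2990 CPM inside against at most 223 CPM outside for cerebellum, and 649 against 277, 1510 against 766 and 836 against 73.2 CPM for cortex, hippocampus and olfactory bulb). CPM is a count divided by the total gene counts of its library in M, scaled by TMM over the 24 libraries. A total of 3 libraries held under 8 M counts, and they bear on the low receptor values below: 26 of the 44 receptor genes had a count of 0 in cerebellum KO 1 (6.5 M), 16 in olfactory bulb KO 2 (5.18 M) and 6 in olfactory bulb WT 1 (7.4 M), against 0 to 4 in each of the other libraries.

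Muscarinic, adrenergic, dopamine and histamine receptors, and all serotonin receptors but Htr3a and Htr3b, are G-protein-coupled. Those coupled to Gq raise calcium through phospholipase C, those coupled to Gs raise cyclic AMP, and those coupled to Gi or Go lower it and open potassium channels. Nicotinic subunits, Htr3a and Htr3b assemble into pentameric ion channels that open on binding acetylcholine or serotonin. Of the 44 genes, 14 couple to Gi, 9 to Gq, 9 to Gs and 12 encode channel subunits.

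The sequences that bear on the comparisons below come from RefSeq, build GRCm38.p6. The microRNA that Cdr1as binds is shown first, 5′ to 3′, with its seed (bases 2 to 8, the part that pairs with targets) in capitals. The mature miR-7a-5p printed here lies at chr7:78888295-78888317 on the plus strand.
miR-7a-5p: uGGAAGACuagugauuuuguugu
The seed pairs with GTCTTCC, and 7 of the 42 receptor genes with an annotated 3′ UTR held at least 1 such site there (16.7%). Of all 14908 protein-coding genes with 3′ UTRs that met the count minimum, 2228 did (14.9%). The median 3′ UTR was longer in the receptor genes, at 1706 bases against 1346. Receptor genes with a site were Adra1a, Adra2c, Chrm1, Chrna2, Chrna4, Chrnb2 and Hrh1, of which Chrm1, Chrna4 and Chrnb2 held 2 each. The annotation used gives no 3′ UTR for Chrm4 or Chrm5. Sites in Chrnb2 and Chrm1, the leading receptor genes per length of WT cerebellum and hippocampus, are shown with 10 bases on either side and the site in capitals.
Chrnb2 site: tcaaagatagGTCTTCCaggagttctg
Chrm1 site: taaaggtgcaGTCTTCCttggcccatt

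Promoters (250 bases before to 50 after an annotated start, 300 in all) are shown for Chrm4, which had the smallest p between genotypes within a region. They are also shown for Chrna5, Chrna3 and Chrnb4, neighbours on chromosome 9, of which Chrna5 differed from Chrna3 and Chrnb4 in its regions. Capitals mark the GC box GGGCGG or its reverse complement CCGCCC and, in Chrm4, ATTGG, the reverse complement of the CCAAT box.
Chrm4 (chr2:91921939-91922238, plus strand): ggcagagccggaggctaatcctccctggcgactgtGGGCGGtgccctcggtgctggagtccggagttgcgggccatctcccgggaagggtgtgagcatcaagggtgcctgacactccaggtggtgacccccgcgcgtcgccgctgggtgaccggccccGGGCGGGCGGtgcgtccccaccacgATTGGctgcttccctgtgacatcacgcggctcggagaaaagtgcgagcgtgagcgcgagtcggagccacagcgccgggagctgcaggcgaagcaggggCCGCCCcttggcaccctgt
Chrna5 (chr9:54981238-54981537, plus strand): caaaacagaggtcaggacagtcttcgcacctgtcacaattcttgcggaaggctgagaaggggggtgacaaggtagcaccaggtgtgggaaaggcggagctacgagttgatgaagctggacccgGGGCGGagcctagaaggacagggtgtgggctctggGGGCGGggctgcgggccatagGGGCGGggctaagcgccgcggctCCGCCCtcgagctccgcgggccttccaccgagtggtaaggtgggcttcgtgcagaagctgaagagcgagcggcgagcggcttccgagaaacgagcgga
Chrna3 (chr9:55026513-55026812, minus strand): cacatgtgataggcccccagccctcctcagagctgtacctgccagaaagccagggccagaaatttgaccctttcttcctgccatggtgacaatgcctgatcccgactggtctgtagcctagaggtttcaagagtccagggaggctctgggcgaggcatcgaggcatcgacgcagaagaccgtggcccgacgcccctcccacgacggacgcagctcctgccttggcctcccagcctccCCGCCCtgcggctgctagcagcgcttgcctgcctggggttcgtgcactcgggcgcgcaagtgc
Chrnb4 (chr9:55048495-55048794, minus strand): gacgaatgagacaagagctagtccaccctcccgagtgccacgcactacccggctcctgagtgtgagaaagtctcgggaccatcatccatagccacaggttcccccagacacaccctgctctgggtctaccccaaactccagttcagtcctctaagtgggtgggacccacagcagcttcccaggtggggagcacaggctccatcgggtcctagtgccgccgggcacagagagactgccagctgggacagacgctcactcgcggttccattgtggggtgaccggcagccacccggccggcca
The Chrm4 promoter holds 4 GC boxes, 2 of them overlapping in GGGCGGGCGG, at a GC content of 70.7%, and the printed Chrna5 promoter 4, the Chrna3 promoter 1 and the Chrnb4 promoter 0. An upstream Chrna5 promoter (chr9:54980630-54980929, plus strand, not printed) holds 0, at a GC content of 41.3%. Promoters were found for 34 of the 44 genes, 43 promoters in all. On both strands, GGGCGG occurred in 27 of them (62.8%) against 35.7% of all 32851 promoters, CCAAT in 11 (25.6%) against 37.4%, TATAAA in 2 (4.65%) against 13.6%, and the cyclic AMP response element TGACGTCA in 0 against 1.79%. These matches are descriptions of the letters and not of factor binding.

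In WT brain the receptor genes formed strong regional patterns, and the cerebellum stood apart by its low levels. Levels differed among the 4 regions for 43 of the 44 genes (edgeR quasi-likelihood test, Benjamini-Hochberg adjusted p under 0.05), against 57.7% of all genes tested, and Chrnb1, the beta subunit of the muscle nicotinic receptor, was the exception (adjusted p = 0.689). The mean was highest in the cortex for 17 genes, in the hippocampus for 13, in the olfactory bulb for 10 and in the cerebellum for 4. All 3 libraries of that region lay above all 3 of the region with the next highest mean for 12, 10, 7 and 2 of these genes. The cerebellum was lowest for 29 genes, the olfactory bulb for 8 and the hippocampus for 7. Summed over the 44 genes and divided by exon length, WT levels were 224 ± 18.9 CPM per kilobase (kb) in the cortex, 185 ± 4.8 in the hippocampus, 150 ± 3.03 in the olfactory bulb and 44.7 ± 6.9 in the cerebellum (SD, n = 3 each).

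Each WT region was also set against the mean of the other regions, and a gene was called where the adjusted p was under 0.05 and the level differed at least 1 unit on the log2 scale (edgeR). In the cortex 28 receptor genes were higher and 1 lower, where 6.87% and 4.33% of all genes were, and the median log2 fold change was 1.42, against −0.01 over all genes. Hippocampal levels were higher for 16 and lower for 8 (6.28% and 3.19% of all genes, median 0.38 against 0.02), and bulb levels higher for 14 and lower for 8 (8.99% and 6.17%, median −0.11 against 0.00). Only 3 genes were higher in the cerebellum and 31 were lower (9.02% and 12.8%, median −1.74 against −0.00). Markers of neighbouring tissue were also called higher in WT cortex: 8 of 8 for striatum, 4 of 5 for hypothalamus, and 3 of 7 for thalamus and habenula. The part of such tissue in the cortical receptor levels was not tested.

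**Figure D1:**
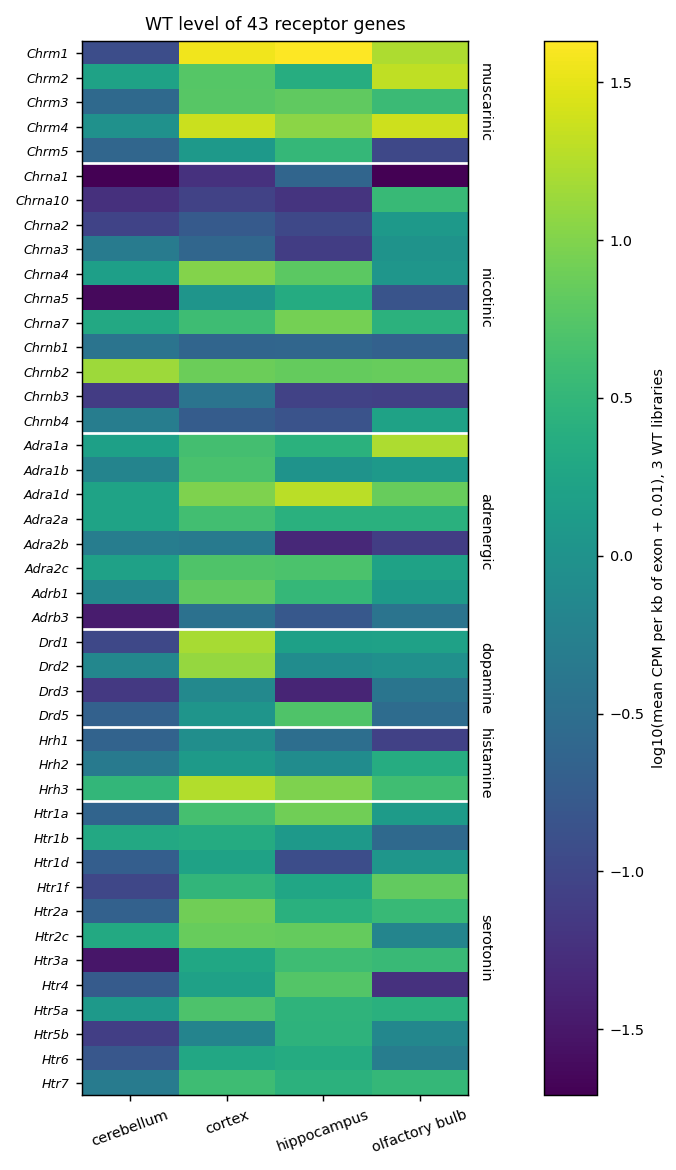
WT level of 43 of the 44 receptor genes (down the page, grouped by transmitter) in 4 brain regions (columns), as the log10 of mean CPM per kb plus 0.01, n = 3 libraries per region. The cerebellum cell is the darkest, and so the lowest, for 29 genes, and Chrm1 in the hippocampus, at 42.8 CPM per kb, is the brightest cell.

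Muscarinic receptors held the largest share of WT receptor RNA per length outside the cerebellum, 43.4% in olfactory bulb, 35.8% in hippocampus and 32.2% in cortex, against 6.87% in cerebellum. These shares depend on annotated lengths. Chrm4, the top gene of the class in WT bulb (36.2%), has 1.44 kb without a 3′ UTR, against 6.05 kb for Chrm2 and 6.49 kb for Chrm1. Of the 5 muscarinic genes, 3 were highest in hippocampus and 2 in bulb. Chrm1, the Gq-coupled M1 receptor of forebrain pyramidal neurons (ENSMUSG00000032773, chromosome 19), had 267, 307 and 259 CPM in WT hippocampus, 252, 209 and 247 in cortex, 102, 106 and 119 in olfactory bulb, and 1.54, 0.315 and 0.305 in cerebellum. Every hippocampal library lay above every cortical one, by a small margin, and both regions lay above the olfactory bulb and far above the cerebellum. Its log2 fold change against the other regions was 3.31 (SE 0.19, adjusted p = 1.27e-08, edgeR) in the hippocampus, 2.99 in the cortex and −7.81 (SE 0.33, adjusted p = 1.69e-10) in the cerebellum. Per length Chrm1 reached 42.8 ± 3.93 CPM per kb in hippocampus and 36.4 ± 3.68 in cortex, the highest of the 44 in both (SD, n = 3).

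Chrm2, a Gi-coupled receptor that acts on many cholinergic terminals as autoreceptor, had 149, 120 and 109 CPM in WT olfactory bulb, against means of 34.3 in cortex, 14.1 in hippocampus and 9.88 in cerebellum. Every bulb library exceeded every library of another region (log2 fold change 2.89, SE 0.22, adjusted p = 2.33e-07, edgeR). Chrm4, a Gi-coupled receptor, averaged 33.9 ± 6.03 CPM in WT olfactory bulb and 33.2 ± 5.09 in cortex, 2 means that differed by less than their SD, followed by 16.4 ± 1.67 in hippocampus and 1.36 ± 0.277 in cerebellum (n = 3 each). Chrm3, coupled to Gq, was close in hippocampus (40.7 ± 1.61) and cortex (36.6 ± 5.75), lower in the bulb (23.3 ± 4.09) and lowest in cerebellum (1.61 ± 0.8). Chrm5, a Gq-coupled receptor known from dopamine neurons, had 5.49, 4.66 and 5.35 CPM in WT hippocampus and means of 1.9, 0.382 and 0.15 in cortex, cerebellum and bulb (hippocampus against the others 3.3, SE 0.36, adjusted p = 9.18e-06, edgeR).

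Of the 11 nicotinic subunits, 4 were highest in olfactory bulb, 3 in hippocampus, 2 in cortex and 2 in cerebellum. Chrnb2, the beta subunit of most high-affinity brain receptors, was the leading receptor gene of the cerebellum, with 118, 110 and 117 CPM there and means of 58.7 to 63.9 in the other regions. That difference of 0.91 on the log2 scale (SE 0.1, adjusted p = 2.58e-06, edgeR) lay just under the fold threshold. At 13.7 ± 0.536 CPM per kb (SD, n = 3) Chrnb2 made up 73.0% of the nicotinic sum of WT cerebellum, and nicotinic genes 42.3% of the sum of all 44. Its exons share 16.3% of their length with the opposite-strand gene Adar, and as the sources used here do not say whether reads were counted by strand, its level is uncertain to that extent. The same holds for Chrna10 (39.0%, Art1), Hrh3 (11.1%), Adra1d (7.7%), Chrm1 (5.1%), Hrh2 (2.4%) and Chrm2 (2.3%).

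Chrna4, the usual partner of Chrnb2, had 47.2, 45.4 and 62.3 CPM in WT cortex and was higher there than elsewhere (2.23, SE 0.2, adjusted p = 1.3e-06, edgeR). Chrna7, which forms homomeric receptors with high calcium permeability, peaked in hippocampus with 34.1, 42.8 and 39.0 CPM (1.63, SE 0.12, adjusted p = 1.35e-07). Chrna10, best known from hair cells of the inner ear, had 7.14, 10.8 and 9.08 CPM in olfactory bulb and no other WT library above 0.354 CPM (5.78, SE 0.38, adjusted p = 2.54e-08). Chrna2 was likewise a bulb gene, at 7.52, 3.01 and 3.21 CPM (3.42, SE 0.35, adjusted p = 2.51e-06). Chrna1, the alpha subunit of muscle receptors, was detected at 1.02, 1.04 and 0.956 CPM in hippocampus (3.80, SE 0.62, adjusted p = 0.000367) and at 16 to 26 counts per library. Chrna1 met the count minimum through hippocampal libraries alone, and Chrna10 almost wholly through bulb libraries. Their p-values in those regions are therefore no independent evidence. Chrnb3 was higher in cortex, at a mean of 2.36 CPM (2.22, SE 0.47, adjusted p = 0.00234).

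Among the neighbours Chrna5, Chrna3 and Chrnb4, Chrna5 had another regional profile than Chrna3 and Chrnb4. Chrna5 (ENSMUSG00000035594), an accessory subunit, had 8.07, 6.67 and 6.21 CPM in WT hippocampus and means of 3.35 in cortex, 0.424 in olfactory bulb and 0.0436 in cerebellum. Chrnb4 (ENSMUSG00000035200) had 4.89, 6.29 and 7.28 CPM in bulb and means of 1.87 in cerebellum, 0.65 in cortex and 0.476 in hippocampus. Chrna3 (ENSMUSG00000032303), the alpha subunit that pairs with Chrnb4, followed the same order, with 1.25, 6.37 and 8.29 CPM in bulb and means of 2.5 in cerebellum, 1.23 in cortex and 0.363 in hippocampus. Chrna5 was called higher in hippocampus (3.86, SE 0.4, adjusted p = 4.63e-06, edgeR), where both Chrna3 (−2.78, SE 0.55) and Chrnb4 (−1.99, SE 0.33) were called lower. In the bulb Chrnb4 (2.87, SE 0.25, adjusted p = 4.87e-07) and Chrna3 (2.36, SE 0.4, adjusted p = 0.000351) were called higher and Chrna5 was not (−1.24, SE 0.6, adjusted p = 0.129).

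**Figure D2:**
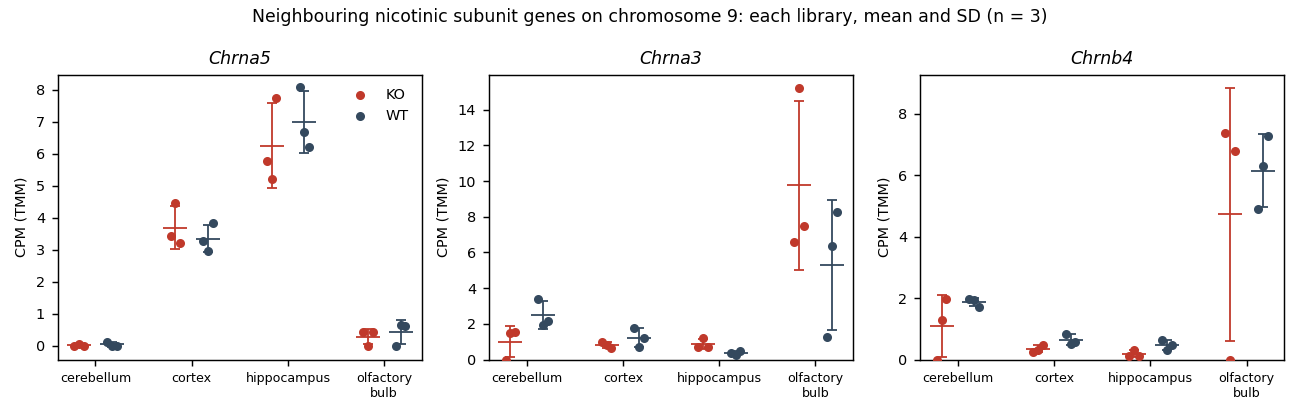
CPM of Chrna5, Chrna3 and Chrnb4 in each library (points) with the mean and SD of 3, KO left of WT in each region. Chrna5 points are highest in hippocampus and those of Chrna3 and Chrnb4 in olfactory bulb, with 1 bulb KO library at 15.2 CPM for Chrna3 and at 0 for Chrnb4.

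The 9 adrenergic genes split between regions by subtype. Adra1a, a Gq-coupled receptor, had 149, 148 and 136 CPM in WT olfactory bulb and a mean of 38.0 in cortex, the next region (2.66, SE 0.09, adjusted p = 4.83e-11, edgeR, the smallest adjusted p among the 44 in that comparison). Adra1d, with the same coupling, had 36.9, 38.8 and 35.1 CPM in hippocampus (1.99, SE 0.2, adjusted p = 2.77e-06), and Adra1b a mean of 15.7 in cortex against 2.12 to 4.27 elsewhere (2.32, SE 0.18, adjusted p = 2.87e-07). The Gq-coupled adrenergic genes therefore each led in a different region.

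Adrb1, the Gs-coupled beta receptor of the forebrain, had 24.4, 20.2 and 21.1 CPM in cortex (2.19, SE 0.16, adjusted p = 1.33e-07, edgeR). Adra2b had 1.9, 1.83 and 2.26 CPM in cerebellum (2.13, SE 0.4, adjusted p = 0.000584), close to a cortical mean of 1.78 and above 0.149 in hippocampus and 0.277 in bulb. Adra2a and Adra2c, the Gi-coupled autoreceptors of noradrenergic cells, were present in all regions at means of 5.45 to 20.1 CPM. Adrb3 stayed at or under a mean of 1.24 CPM in each.

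Of the 4 dopamine receptors, 3 were highest in cortex and Drd5 in hippocampus. Drd1, the Gs-coupled receptor of direct-pathway striatal neurons, had 37.8, 65.7 and 68.5 CPM in WT cortex (4.65, SE 0.27, adjusted p = 2.69e-08, edgeR), and Drd2, the Gi-coupled receptor of the indirect pathway, 20.4, 36.2 and 40.7 (3.97, SE 0.41, adjusted p = 7.41e-06). The scarce Drd3, which met the count minimum mainly through cortex libraries, had 0.914, 1.54 and 1.3 CPM there (2.93, SE 0.58, adjusted p = 0.00144, no independent evidence). In the same libraries all 8 striatum markers tested were higher than in the other regions (median 2.84), and their summed level of 791, 1330 and 1350 CPM ran in the order of Drd1 and Drd2. Of these markers Rgs9, Pde10a and Ppp1r1b also stand on the lists of receptor signalling genes used below. The part of striatal tissue in the cortical levels was not tested. Drd5, a Gs-coupled receptor of hippocampal neurons, had 18.8, 17.1 and 13.2 CPM in hippocampus (3.66, SE 0.25, adjusted p = 6.6e-08) and means of 3.34 in cortex, 0.9 in bulb and 0.636 in cerebellum.

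Among histamine receptors Hrh3, the Gi-coupled presynaptic receptor, made up 89.1% of the class in WT cortex per length. It had 55.7, 48.3 and 62.9 CPM in cortex (1.81, SE 0.15, adjusted p = 4.54e-07, edgeR) and means of 30.7 in hippocampus, 12.7 in bulb and 9.92 in cerebellum, where at 3.15 ± 0.407 CPM per kb (SD, n = 3) it came second to Chrnb2. Hrh2, coupled to Gs, was highest in the bulb at 10.3, 14.6 and 15.8 CPM (1.57, SE 0.19, adjusted p = 1.45e-05), and Hrh1, coupled to Gq, in the cortex at 4.24, 3.79 and 3.46 CPM (2.23, SE 0.4, adjusted p = 0.000737).

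The 12 serotonin receptors fell mainly to cortex and hippocampus, which were highest for 6 and 5 of them. In the hippocampus Htr1a, the Gi-coupled receptor that hyperpolarises pyramidal cells, had 35.0, 34.2 and 39.8 CPM (2.83, SE 0.31, adjusted p = 1.17e-05, edgeR), and Htr4, coupled to Gs, 26.4, 27.9 and 25.8 (4.49, SE 0.27, adjusted p = 1.86e-08) against a mean of 0.238 in bulb. Htr5b (3.11, SE 0.49), Htr3a (2.69, SE 0.3) and Htr6 (2.08, SE 0.28) were called higher there as well. Htr3a averaged 8.14 CPM in hippocampus but 7.36 in bulb, and Htr6 5.17 but 4.58 in cortex, with overlapping libraries. Their cerebellar means of 0.0436 and 0.349 CPM enter the mean of the other regions. In the cortex Htr2a, the Gq-coupled receptor on which hallucinogens act, had 41.8, 48.7 and 44.6 CPM (2.66, SE 0.19, adjusted p = 1.2e-07), and Htr1d, a Gi-coupled terminal receptor, 4.31, 5.84 and 5.63 (2.5, SE 0.27, adjusted p = 7.66e-06). Htr5a and Htr7 were likewise highest in cortex, at means of 26.4 and 13.2 CPM.

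Htr1f, coupled to Gi, was the serotonin gene of the olfactory bulb, with 16, 19.4 and 17.3 CPM (3.03, SE 0.31, adjusted p = 2.98e-06, edgeR), although cortex WT 2 reached 14.1 CPM against 4.05 and 5.51 in the other cortical WT libraries. Htr1b, known from presynaptic terminals, had 9.42, 9.45 and 9.39 CPM in cerebellum (1.20, SE 0.17, adjusted p = 4.87e-05) and a mean of 10.4 in cortex. Htr2c, the Gq-coupled receptor that choroid plexus epithelium expresses at high level, had means of 66.3 ± 11.4 CPM in cortex, 64.6 ± 27.4 in hippocampus and 19.6 ± 14.7 in cerebellum (SD, n = 3 each) and 5.97 in bulb, with wide spreads in hippocampus and cerebellum that are set beside choroid plexus markers below.

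The region with the highest mean was the same in KO as in WT for 38 of the 44 genes. It was another for Chrm3 (cortex in KO, hippocampus in WT), Chrm4 (cortex in KO, olfactory bulb in WT), Chrnb1 (hippocampus in KO, cerebellum in WT), Htr1b (cerebellum in KO, cortex in WT), Htr1d (olfactory bulb in KO, cortex in WT) and Htr3a (olfactory bulb in KO, hippocampus in WT). Receptor sums per kb were 241 ± 18.4 in KO cortex against 224 ± 18.9 in WT cortex, 188 ± 3.15 in KO hippocampus against 185 ± 4.8 in WT hippocampus, 159 ± 4.91 in KO bulb against 150 ± 3.03 in WT bulb and 40.6 ± 1.76 in KO cerebellum against 44.7 ± 6.9 in WT cerebellum (SD, n = 3 each).

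Between genotypes no receptor gene passed the edgeR test in any region. In the cortex 0 of 41 tested genes were called, as were 0.00634% of all genes (DESeq2 called 1), and 3 had an unadjusted p under 0.05, as did 5.64% of all genes. In the hippocampus 0 of 36 were called (0.0062% of all genes, DESeq2 0), with 4 at an unadjusted p under 0.05 (4.01%). The olfactory bulb gave 0 of 36 (0.0253%, DESeq2 0) and 2 (2.43%), and the cerebellum 0 of 27 (0.00644%, DESeq2 0) and 0 (1.89%). DESeq2 gave an adjusted p to 42 receptor genes in cortex, 34 in hippocampus, 22 in bulb and only 6 in cerebellum. Its counts cover those genes alone. Median log2 fold changes of KO over WT were 0.03 in cortex, −0.05 in hippocampus and 0.06 in bulb, against 0.00, −0.02 and −0.01 over all genes. In cerebellum the median was −0.50 against −0.04, with 8 of 27 values positive where 43.1% of all genes were. Without cerebellum KO 1, the library with 26 receptor genes at 0, it was −0.21 over 28 genes against −0.01, with 5 values positive, and without cerebellum WT 1 it was −0.16 over 27 genes against −0.04, with 10 positive.

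**Figure D3:**
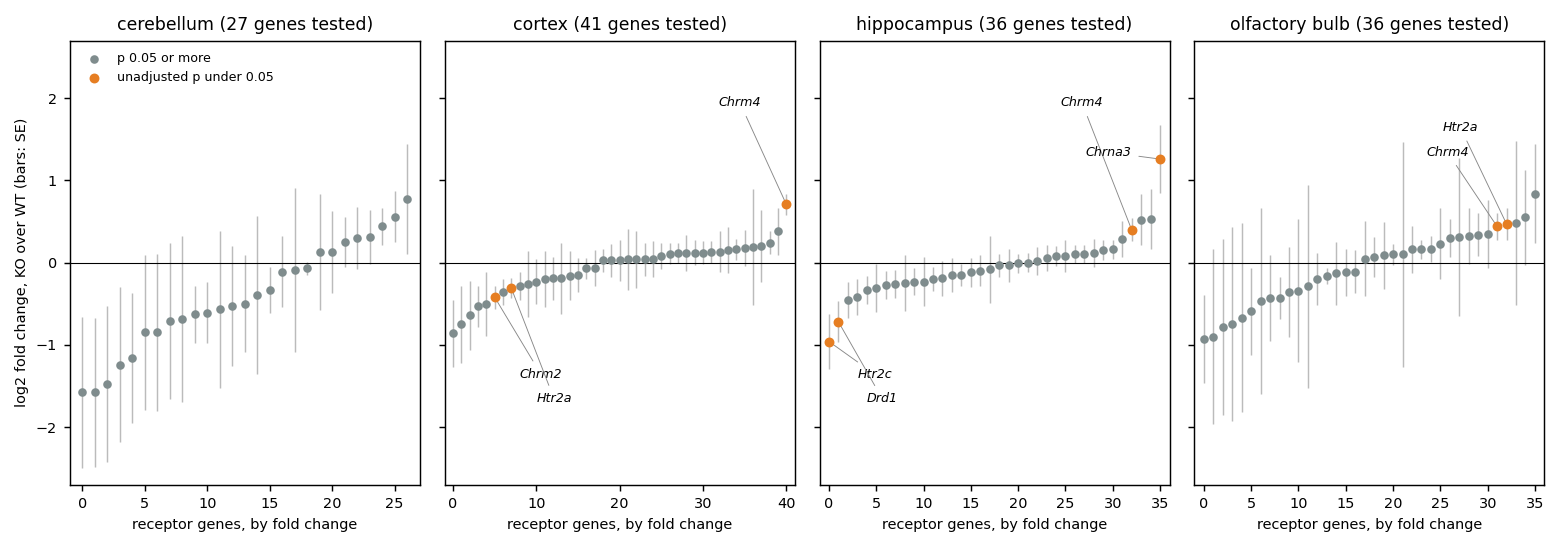
log2 fold change of KO over WT for every tested receptor gene in each region, sorted, with bars of 1 SE; orange marks an unadjusted p under 0.05 (edgeR). Chrm4 is orange and positive in cortex, hippocampus and olfactory bulb, at 0.71, 0.40 and 0.44, and has a negative value with a wide bar in cerebellum.

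Chrm4 had the smallest p of the 44 in the cortex and was higher in every KO library than in every WT library of the 3 forebrain regions. This receptor (ENSMUSG00000040495, chromosome 2) is known from striatal and cortical neurons, where it lowers cyclic AMP and opposes Drd1 signalling. In the cortex it had 60.3, 51.3 and 52.7 CPM in KO, against 32.8, 28.3 and 38.4 in WT. The lowest KO value thus lay above the highest WT value. The log2 fold change was 0.71 (SE 0.13, unadjusted p = 0.000631, adjusted p = 0.585, edgeR), so it missed the threshold. Same-numbered cortex libraries deviated together, and the share of reads in no gene was 30.5%, 53.7% and 33.6% in KO, against 20.3%, 56.2% and 34.9% in WT. With the replicate number as a block the adjusted p was 0.0412, and 0.19% of all genes were called. With that share as a covariate (added once the data had been seen) it was 0.0203, and 0.361% were called. DESeq2 gave 0.72 and an adjusted p of 0.0138, with 0.215% of all genes called. Over 13 alternatives the adjusted p ran from 0.0138 to 1.0, and with each cortical library left out in turn the log2 fold change stayed between 0.62 and 0.83.

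In the hippocampus Chrm4 had 19.1, 22.5 and 24.4 CPM in KO, against 14.6, 16.7 and 17.9 in WT (0.40, SE 0.14, unadjusted p = 0.0181, adjusted p = 0.953, edgeR). In the olfactory bulb it had 46.2, 46.1 and 46.1 CPM in KO, against 27.7, 34.2 and 39.7 in WT (0.44, SE 0.16, unadjusted p = 0.0206, adjusted p = 0.992). Neither region shows overlap between genotypes. Without the bulb libraries under 8 M counts the value was 0.32 (unadjusted p = 0.0113). The cerebellum, where the gene is scarce, went the other way, with 0, 0.706 and 0.539 CPM in KO, against 1.67, 1.13 and 1.28 in WT, or 21 counts against 90 (−1.58, SE 0.91, unadjusted p = 0.122, adjusted p = 0.949).

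A test of whether the genotype difference itself differs between regions gave Chrm4 the smallest p of the 44 (unadjusted p = 0.000195, adjusted p = 0.581, edgeR). DESeq2 gave an adjusted p of 0.000839, among 0.143% of genes called, and over 30 alternatives the adjusted p ran from 0.000839 to 1.0. Without the cerebellum the unadjusted p was 0.28 (adjusted p = 1.0, edgeR). Averaged over cortex, hippocampus and bulb, Chrm4 was 0.53 higher in KO on the log2 scale (unadjusted p = 0.000947, adjusted p = 0.679, limma), a set of regions chosen after seeing the data.

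Striatum markers, which mark tissue rich in Chrm4, were summed in the same cortical libraries. They came to 1110, 1250 and 769 CPM in KO, against 791, 1330 and 1350 in WT. Of the 8 markers 2 had a higher mean in KO and 0 were at 0. The KO library with the lowest striatal sum held 52.7 CPM of Chrm4, and the WT library with the highest 38.4 CPM. The part of the markers in the Chrm4 difference was not tested. Drd1 (47.0, 62.2 and 42.3 CPM in KO, 37.8, 65.7 and 68.5 in WT) and Drd2 (34.9, 33.1 and 19.8 in KO, 20.4, 36.2 and 40.7 in WT) had log2 fold changes of −0.19 (SE 0.26) and −0.16 (SE 0.3). In each genotype the libraries ranked for Drd1 as they did for the marker sum, and for Drd2 they did so in WT.

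Among the other muscarinic genes values of both signs occurred. In the cortex Chrm2 had 25.4, 26.9 and 25.1 CPM in KO, against 38.9, 34.6 and 29.5 in WT, without overlap (−0.42, SE 0.14, unadjusted p = 0.0192, adjusted p = 0.858, edgeR). Chrm1 averaged 258 ± 39.4 CPM in KO cortex and 236 ± 23.9 in WT cortex, a difference within the spread. Summed per kb, the 5 muscarinic genes came to 99.5, 80.2 and 90.9 in KO cortex, against 75.8, 63.1 and 77.5 in WT cortex, and to 75.6, 75.1 and 75.7 in KO bulb, against 64.0, 63.4 and 67.5 in WT bulb. All KO sums of these regions lay above the WT sums, while in hippocampus the means were 73.1 ± 3.98 in KO and 66.3 ± 3.84 in WT (SD, n = 3) with overlapping libraries. Chrm4 alone came to 38.0 CPM per kb in KO cortex and 23.0 in WT cortex, where its annotated length holds coding sequence and no 3′ UTR.

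**Figure D4:**
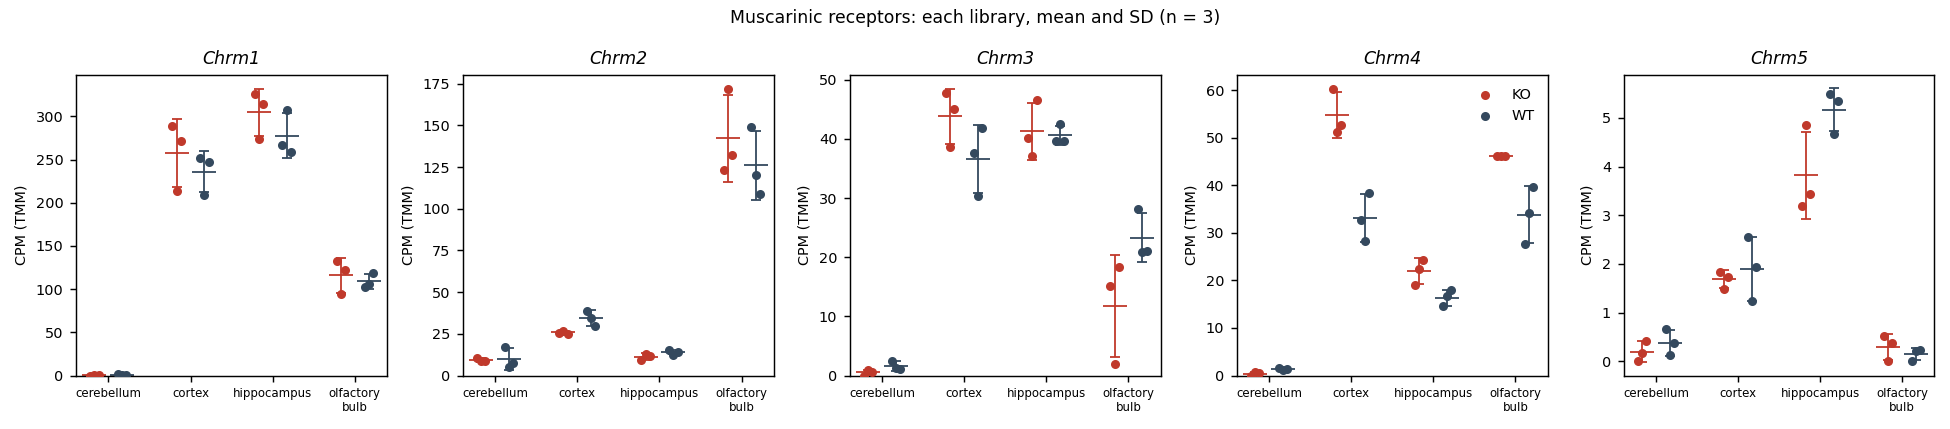
CPM of Chrm1 to Chrm5 in each library (points) by region, KO (red) left of WT (dark), with mean and SD of 3. Chrm4 is the gene whose KO points clear its WT points in cortex, hippocampus and olfactory bulb; Chrm3 in bulb includes a KO library at 1.93 CPM, the shallow KO 2.

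In the cortex the libraries of the genotypes did not overlap for 6 of 41 genes: Chrm4 higher in KO (6.45% of all genes were), and Chrm2, Htr2a, Drd5, Adra2b and Adrb3 lower (6.89%). Htr2a had 37.4, 37.9 and 34.9 CPM in KO, against 41.8, 48.7 and 44.6 in WT (−0.31, SE 0.12, unadjusted p = 0.0394, adjusted p = 0.858, edgeR). In the olfactory bulb the same gene had 27.0, 24.5 and 30.6 CPM in KO, against 16.7, 19.8 and 22.6 in WT (0.47, SE 0.19, unadjusted p = 0.0312, adjusted p = 0.992). The directions were opposite, but the test of the difference between regions gave an unadjusted p of 0.123 (adjusted p = 1.0). Drd5 was at 2.32 ± 0.415 CPM in KO cortex and 3.34 ± 0.231 in WT cortex (SD, n = 3).

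In the hippocampus 6 of 36 genes had all KO libraries above all WT libraries (6.58% of all genes), namely Chrm4, Chrna1, Chrna3, Chrnb1, Drd2 and Htr4, and Drd1 had them all below (3.26%). Chrna3 had 0.731, 1.22 and 0.72 CPM in KO, against 0.353, 0.259 and 0.478 in WT (1.26, SE 0.41, unadjusted p = 0.0133, adjusted p = 0.953, edgeR), which is 51 counts against 23. It is a gene of the medial habenula, and 7 thalamus and habenula markers summed to 134, 193 and 128 CPM in the KO libraries and 112, 113 and 132 in the WT libraries. Of these markers 6 had a higher mean in KO and 0 were at 0, and the library with the most Chrna3 had the highest sum. Their part in the difference was not tested. Drd1 had 2.99, 3.94 and 3.43 CPM in KO, against 4.66, 4.66 and 7.6 in WT (−0.72, SE 0.25, unadjusted p = 0.0156, adjusted p = 0.953).

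Htr2c varied between libraries of the same group, and choroid plexus markers varied with it in cerebellum. In hippocampus the WT libraries with high marker sums held the most Htr2c. Among hippocampal KO libraries the sums were nearly flat while Htr2c varied. In the hippocampus Htr2c had 26.4, 47.2 and 27.3 CPM in KO, against 62.5, 38.4 and 93.1 in WT (−0.96, SE 0.34, unadjusted p = 0.0232, adjusted p = 0.953, edgeR). The 8 choroid plexus markers, led by Ttr, summed to 40.9, 38.5 and 34.1 CPM in these KO libraries, against 2290, 34.3 and 1860 in the WT libraries. All 8 had a lower mean in KO and 0 were at 0. WT 2, with no excess of these markers, held less Htr2c than KO 2. In the cerebellum Htr2c was at 3.43, 16.1 and 6.29 CPM in KO, against 31.9, 23.4 and 3.36 in WT, and the marker sum at 261, 641 and 359 CPM in KO, against 1110, 1110 and 25.8 in WT. Of the 8 markers 7 had a lower mean in KO and 0 were at 0, and WT 3 was lowest and WT 1 and WT 2 highest for both Htr2c and the sum. In the olfactory bulb KO 1 stood out at 19.6 CPM of Htr2c, beside 0.35 and 2.09 in KO 2 and KO 3 and 3.51 to 7.59 in WT, with a marker sum of 35.1 CPM. The part of the markers in the Htr2c difference was not tested. In the cortex the values were 46.0, 55.9 and 54.2 CPM in KO, against 77.0, 54.3 and 67.6 in WT (−0.36, unadjusted p = 0.0512, adjusted p = 0.858), with choroid marker sums of 126, 20.7 and 238 CPM in KO, against 259, 83.9 and 17.4 in WT. Hypothalamus markers, 5 in all, summed to 3.03, 4.73 and 10.9 CPM in KO cortex, against 43.9, 4.4 and 25.9 in WT cortex, in the order of Htr2c among the WT libraries. Of these 4 had a lower mean in KO and 0 were at 0, and their part in the cortical values was not tested.

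**Figure D5:**
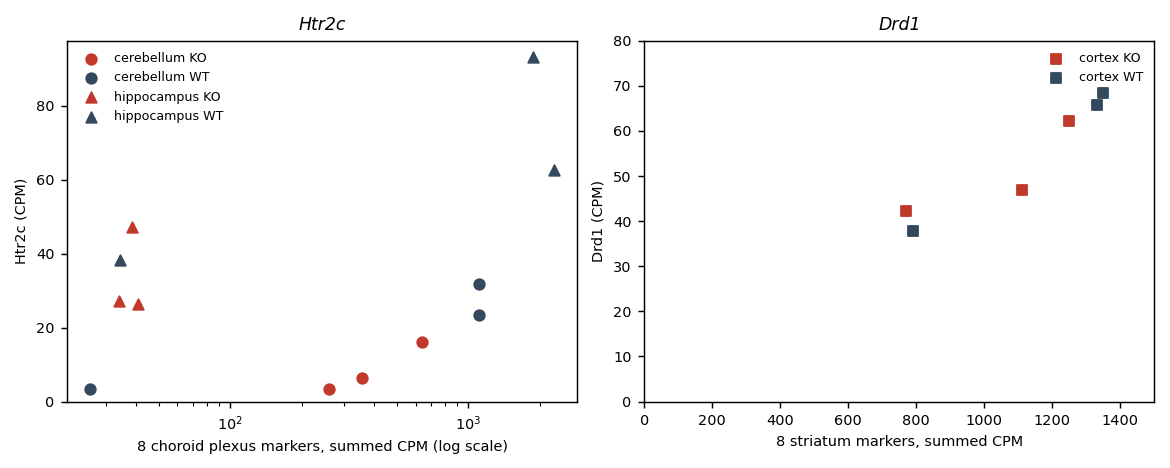
Left, Htr2c CPM against the summed CPM of 8 choroid plexus markers (log axis) in cerebellum and hippocampus libraries; right, Drd1 CPM against the summed CPM of 8 striatum markers in cortex libraries; KO and WT are shown by colour. The hippocampus WT libraries with sums of 2290 and 1860 are those with 62.5 and 93.1 CPM of Htr2c, and the cortex libraries with the lowest striatum sums (769 and 791) hold the least Drd1 of their genotype.

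In the olfactory bulb 3 of 36 genes were higher in all KO libraries (5.73% of all genes), Chrm4, Htr2a and Chrnb2, and Chrm3 and Htr1f were lower in all (5.77%). Chrnb2, at 70.3, 62.0 and 67.5 CPM in KO against 57.9, 59.0 and 61.8 in WT, differed by 0.16 (SE 0.11, adjusted p = 0.992, edgeR). Chrm3 had 15.1, 1.93 and 18.3 CPM in KO, against 28.1, 20.9 and 21.0 in WT (−0.93, SE 0.54, unadjusted p = 0.114, adjusted p = 0.992). Without the libraries under 8 M counts it was −0.33 (unadjusted p = 0.0322), and 3 of 40 genes had an unadjusted p under 0.05, as did 7.83% of all genes. Chrnb4 was at 7.39, 0 and 6.8 CPM in KO, against 4.89, 6.29 and 7.28 in WT, and Chrna3 at 6.56, 15.2 and 7.5 in KO, against 1.25, 6.37 and 8.29 in WT, so the shallow KO 2 was at opposite extremes for these neighbours.

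Several cerebellar values moved when KO 1 was left out. Adra2a and Htr1b were higher in all KO libraries (2 of 27, 5.32% of all genes), and Adra1a, Chrm3, Chrm4, Chrna3, Htr5a and Htr7 lower in all (6 of 27, 5.94%). Htr1b had 21.5, 11.1 and 9.7 CPM in KO, against 9.42, 9.45 and 9.39 in WT (0.56, SE 0.31, adjusted p = 0.949, edgeR), and without KO 1 the value was 0.13. Adra2a had 11.9, 10 and 11.3 CPM in KO, against 9.75, 6.55 and 7.93 in WT (0.44, SE 0.22, adjusted p = 0.949). With KO 1 left out, 5 of 28 genes had an unadjusted p under 0.05, as did 4.95% of all genes, and 0 passed the adjusted threshold. They were Htr7 (−1.16, SE 0.40), Chrm4 (−1.16, SE 0.37), Chrm3 (−1.06, SE 0.46), Chrna3 (−0.76, SE 0.32) and Adra1a (−0.32, SE 0.12), each lower in KO. Cerebellum WT 1 was the highest of its group for several forebrain receptors, with 2.36 CPM of Htr1a against 0.252 and 0.366, 4.16 of Drd2 against 0.504 and 0.549, and 17.2 of Chrm2 against 5.16 and 7.26 in WT 2 and WT 3.

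In averages of the 4 regions, 3 per genotype by replicate number, 0 of 44 genes passed (limma, 0.0112% of all genes; 0 in edgeR on all 24 libraries taken as independent) and 4 had an unadjusted p under 0.05, as did 5.09% of all genes. The median log2 fold change was −0.18, against −0.04 over all genes, with 10 of 44 values positive, where 40.9% of all genes were. Without the cerebellum the median was −0.03 with 18 positive, and with cortex and hippocampus alone 0.01 with 25 positive, both sets of regions chosen after seeing the data. In edgeR on 24 libraries it was −0.08 with 18 positive, and without KO replicate 1 −0.11 with 18 positive. Htr2c had the smallest p (−0.82, SE 0.17, unadjusted p = 0.000559, adjusted p = 0.501). Its adjusted p with the replicate block was 0.0577, in a range of 0.0577 to 0.981 over the alternatives. In the same comparison the 8 choroid plexus markers had a median of −0.84, with 0 positive and 3 at an unadjusted p under 0.05 (limma). Their part in the Htr2c value was not tested. The other receptor genes with an unadjusted p under 0.05 were Htr7 (−0.88, SE 0.24), Chrm3 (−0.76, SE 0.22) and Chrnb4 (−1.25, SE 0.41), with adjusted p-values of 0.873, 0.915 and 0.915. Without the cerebellum these values were −0.78 for Htr2c, −0.52 for Htr7, −0.40 for Chrm3 and −1.16 for Chrnb4. The shallow bulb KO 2 (5.18 M) stayed in, with 0 CPM of Chrnb4 and 1.93 of Chrm3. In the bulb without libraries under 8 M counts the values were 0.59 for Htr2c, −0.1 for Htr7, −0.33 for Chrm3 and 0.07 for Chrnb4 (edgeR). In the test of differences between regions edgeR called 0 of 44 (0.00558% of all genes). DESeq2 called 1 of the 18 receptor genes to which it gave an adjusted p. In edgeR 3 of the 44 had an unadjusted p under 0.05, Chrm4, Htr1a (0.0144) and Chrna3 (0.0474), as did 1.51% of all genes.

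The genes with a miR-7 site were also set beside those without. In the cortex the 7 tested genes with a site had a median log2 fold change of 0.04, between −0.07 and 0.2, and the 34 without had −0.02. In hippocampus the median was −0.06 over 6 genes with a site and −0.06 over 30 without, in bulb −0.02 over 6 with and 0.06 over 30 without, and in cerebellum −0.07 over 5 with and −0.52 over 22 without. Of those with a site 0 had an unadjusted p under 0.05 in any region (edgeR). The cerebellar medians include the shallow KO 1. Without it the median over all 28 tested receptor genes was −0.21. Those with a site were then at −0.32 (Adra1a, unadjusted p = 0.0258, edgeR), −0.09 (Adra2c), −0.31 (Chrm1), −0.73 (Chrna4), −0.13 (Chrnb2) and −0.03 (Hrh1). Chrnb2, with 2 sites of which 1 is followed by A as in the Chrnb2 line above, was at 66.2 ± 8.82 CPM in KO cortex and 63.9 ± 9.15 in WT cortex, and at 110 ± 6.68 and 115 ± 4.49 in KO and WT cerebellum (SD, n = 3 each).

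Lists of genes that supply the transmitters or act on the receptors and their signals were examined in the same way. Over all genes, 6.87% were called higher in WT cortex, 8.99% higher and 6.17% lower in bulb, and 9.02% higher and 12.8% lower in cerebellum. Of 4 measured acetylcholine supply genes, 2 were higher in WT cortex than elsewhere. The synthesising enzyme Chat had 4.77, 3.58 and 6.18 CPM there, 0 in each bulb library and at most 0.131 in another WT library (adjusted p = 1.41e-07, edgeR), and the choline transporter Slc5a7 differed by 4.15 (SE 0.4, adjusted p = 2.17e-06). Of 9 catecholamine supply genes 3 were higher in the olfactory bulb: Th, which makes L-DOPA (5.98, SE 0.19), the dopamine transporter Slc6a3 (5.56, SE 0.3) and the vesicular transporter Slc18a2 (3.26, SE 0.46), whereas the 4 dopamine receptors had at most a mean of 5.71 CPM there. Nicotinic chaperones and lynx proteins, which assemble or restrain these channels, were higher in cortex for 4 of 8 and lower in bulb for 5 of 8, Lypd1 among them at 2.55 (SE 0.1) and −2.93 (SE 0.14). In the cerebellum 3 of 17 effector genes were higher and 5 lower, with Plcb4 at 2.45 (SE 0.09) and Adcy1 at 2.18 (SE 0.09), and among 12 desensitisation genes Rgs8 was higher (3.63, SE 0.08) and Rgs14 lower (−6.75, SE 0.44). Cortical effectors were higher for 4 of 17, led by the dopamine-regulated phosphatase inhibitor Ppp1r1b (2.78, SE 0.17), also a striatum marker, and G proteins for 2 of 10, with Gnal at 1.63 (SE 0.09). All 8 striatum markers were higher in these WT cortex libraries (median 2.84). The part of striatal tissue in the cortical values of Chat, Slc5a7, Ppp1r1b and Gnal was not tested.

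Between genotypes 0 genes of these 7 lists were called in any region by edgeR or DESeq2. DESeq2 gave an adjusted p to 60 of them in cortex, 58 in hippocampus, 51 in bulb and 43 in cerebellum. An unadjusted p under 0.05 (edgeR) was found for 6 of 60 tested in cortex (5.64% of all genes), 2 of 59 in hippocampus (4.01%), 1 of 56 in bulb (2.43%) and 1 of 54 in cerebellum (1.89%). For the receptor effectors the median log2 fold change was 0.03 in cortex, 0.04 in hippocampus, 0.00 in bulb and 0.02 in cerebellum. Slc5a7 had 5.79, 9.73 and 6.75 CPM in KO cortex, against 12.1, 12 and 11.3 in WT cortex, all lower (−0.67, SE 0.23, unadjusted p = 0.0201, adjusted p = 0.858). The part of striatal tissue in the Slc5a7 difference was not tested. Th had 3.38, 2.21 and 1.95 CPM in KO cortex, against 8.29, 3.79 and 4.53 in WT cortex (−1.15, SE 0.35, unadjusted p = 0.0106, adjusted p = 0.858). In the same libraries the 6 olfactory bulb markers, Th among them, summed to 18.5 to 19.8 CPM in KO and 28.6 to 57.2 in WT, with a lower mean in KO for all 6 and 0 at 0, and their part in the difference was not tested. Gnaz, an alpha subunit of the Gi class, had 42.3, 69.0 and 37.2 CPM in KO bulb, against 23.8, 32.3 and 32.8 in WT bulb (0.72, SE 0.24, unadjusted p = 0.0157, adjusted p = 0.992). The receptor kinase Grk5 had 62.3, 42.7 and 46.1 CPM in KO cerebellum, against 35.0, 36.7 and 36.8 in WT cerebellum (0.46, SE 0.16, unadjusted p = 0.0196, adjusted p = 0.949).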

How the data were processed

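Per the labels, RNA was extracted with TRIzol, ribosomal RNA removed with RNase H, and stranded total RNA libraries made. The submitters' processing notes name bcl2fastq 2.17.1.14, STAR 2.5.1b, HTSeq 0.6.1p1 and mm9. The authors deposited raw read counts per gene, 1 file per library, of which 5 summary lines were left out (reads in no gene were 20.3% to 62.9% of a library). Names were found for 32897 of 37620 identifiers. Exon lengths came from GENCODE M21, a later annotation than the counting used, so values per kb are approximate.

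Receptor genes and lists were chosen with earlier results of these data known. Named genes were up to 6 called higher per WT region by fold change, the top 4 per kb, and up to 4 with the smallest p between genotypes in each test; others were chosen after their values were seen, and 1 receptor gene, kept in the counts and sums, is not reported here. R 4.3.3 was used with edgeR 4.0.16 (TMM, quasi-likelihood test; per-region fits keep genes by filterByExpr with a minimum count of 10, other fits genes with 10 counts in 3 libraries), limma 3.58.1 (trend, robust, log2 CPM with a prior count of 2, for means over regions) and DESeq2 1.42.0 as an alternative, all two-sided and adjusted by Benjamini-Hochberg over all genes tested. The edgeR steps were tested on simulated data. With 5.18 to 30.46 M counts per library, a gene under 1 CPM rests on few reads. Same-numbered KO and WT libraries deviated together in cortex (correlations 0.48, 0.63 and 0.19) and in the means over regions (0.17, 0.21 and 0.24), but not in cerebellum, hippocampus or olfactory bulb alone.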

Additional observations from a re-analysis of the deposited data

Results flagged for a closer look

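Whether the genotype difference of Chrm4 differs between regions depended on the tool. DESeq2 gave an adjusted p of 0.000839 and edgeR 0.581, and over 30 alternatives the adjusted p ran from 0.000839 to 1.0. Without the cerebellum edgeR gave an unadjusted p of 0.28. The cerebellar values rest on 21 counts in KO, with 0 in the shallow KO 1, and 90 in WT. All KO libraries lay above all WT libraries in cortex (means of 54.8 CPM in KO and 33.2 in WT), in hippocampus (22.0 in KO and 16.4 in WT) and in olfactory bulb (46.1 in KO and 33.9 in WT), and below them in cerebellum (0.415 in KO and 1.36 in WT).

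Chrna3 lay above WT in all hippocampal KO libraries (means of 0.891 CPM in KO and 0.363 in WT) and below WT in all cerebellar ones (1.01 in KO and 2.5 in WT). The hippocampal values rest on 51 counts in KO and 23 in WT, and the cerebellar ones include 0 in the shallow KO 1. The test of the difference between regions gave an unadjusted p of 0.0474 and an adjusted p of 1.0 (edgeR).

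Htr2a lay above WT in all olfactory bulb KO libraries (27.4 CPM in KO and 19.7 in WT) and below WT in all cortical ones (36.7 in KO and 45.1 in WT). That test gave an unadjusted p of 0.123 and an adjusted p of 1.0 (edgeR). Chrm4, Chrna3 and Htr2a were picked for libraries that did not overlap, in opposite directions in different regions. The share of all genes with that pattern was not computed.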

How the results depend on the processing

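The number of receptor genes called stayed the same or within 1.5 times its value in 183 of 187 repeats. Between genotypes that value was 0, so staying there means only that 0 were called again. Leaving out a library leaves less data for a test, so a repeated 0 says little about stability. The exceptions were cortex, with 1 called (Chrm4) under the replicate block, 1 with the share of reads in no gene as a covariate and 1 in DESeq2, and the test between regions, with 1 in DESeq2. Same-numbered WT cerebellum and cortex libraries also deviated together (correlation 0.41 for each number). The block changed 1 other receptor call: Htr2c was no longer called higher in WT hippocampus, where 23 genes were called under it and 24 without. In the mean over regions Chrm3 turned from −0.76 to 0.14 with cortex and hippocampus alone (adjusted p = 0.969, limma), and the cause was not tested. With each library left out in turn, 0 receptor genes were called (edgeR, limma) in all 6 comparisons between genotypes, and in WT 30 to 35 in cerebellum, 26 to 29 in cortex, 20 to 24 in hippocampus, 21 to 24 in olfactory bulb and 42 to 43 for any difference. Over all genes, calls between genotypes were 1 each in cerebellum, cortex and hippocampus and 4 in bulb. They were 26, 35, 17 and 15 in DESeq2, and 30, 6 and 11 under the block in cortex, hippocampus and bulb. Without hippocampus WT 2 they were 47 there. The mean over regions called 2, 17 under the block and 82 in edgeR on 24 libraries. Low counts limit the scarce genes: 17 of 44 were not tested between genotypes in cerebellum, 3 in cortex and 8 each in hippocampus and bulb.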
